A study of Danio rerio with 16 samples.

Results

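The libraries described here are the 8 of the series that came from vehicle-treated zebrafish larvae, 4 labelled VBA- and 4 labelled VBA+, out of 16 libraries in all. They were chosen by their labels alone, as all libraries whose agent was DMSO, and the comparison of VBA- with VBA+ runs across every gene tested. VBA stands for visual background adaptation, the gathering of pigment in melanophores that pales a larva on a light background, which needs the glucocorticoid receptor (GR). The paper takes the VBA- larvae to be the homozygous GR369- offspring of a cross between heterozygotes. Both copies of nr3c1, the gene of the GR, would then carry a frameshift deletion. The VBA+ larvae were the siblings that did adapt, taken to be a mixture of wild-type and heterozygous animals, so the VBA+ pools would include carriers of the deletion. The paper's grounds were the Mendelian share of VBA- larvae, their lower nr3c1 RNA and genotyping in a pilot experiment. Genotyping of the sequenced pools is not reported. Both groups were of the AB strain, developed in DMSO, the solvent of the cortisol given to the other libraries, and were collected at 5 days post fertilization as pools of 8 whole larvae. The larvae were sorted by melanophore response on the day before collection, and all pools of a condition were drawn from its own dish, so dish, order of collection and genotype class cannot be told apart. Because whole larvae were sequenced, a change in the number of cells of a type and a change in RNA per cell cannot be told apart either.

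The GR is a ligand-activated transcription factor of the nuclear receptor family. Without cortisol it is held in the cytoplasm by chaperones of the Hsp90 class, and with cortisol it moves to the nucleus and raises or represses genes at its binding sites. In fish, as in mammals, it closes the negative feedback loop of the stress axis, sets the level of enzymes of glucose and amino acid metabolism in liver and muscle, and acts on inflammation and on epithelia. Zebrafish larvae make their own cortisol by the age studied here.

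All values are log2 normalized counts as deposited, and every fold change or difference given is the mean of VBA- minus the mean of VBA+ on that log2 scale, where 1 is a doubling. The authors forced all 16 libraries onto a common set of values, so each sums to 14653434 normalized counts, the true depth is unknown, and the most abundant genes can take only a few fixed values. Of 22994 genes, 21686 had a mean of at least 5 normalized counts and were tested with limma, with Benjamini-Hochberg adjustment over all of them. A gene was called when its adjusted p was at most 0.05, its absolute log2 fold change at least 0.5, its standard error (SE) under 1 and its mean at least 75 normalized counts, a level that 13772 genes reached. The labels do not say that same-numbered pools belong together. Over the genes that could be called, deviations of same-numbered pools correlated at 0.21 to 0.31. Some pools of unlike number correlated more, up to 0.49 for VBA- replicate 2 with VBA+ replicate 1, so the numbers are not shown to mark pairs. Calls from a second fit with the replicate number as a block are given beside the first. All libraries of a group correlated across genes at 0.94 or more.

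The mutated gene itself had lower values in 3 of the 4 VBA- pools but was not called. NR3C1 (ENSDARG00000025032) had 9.0, 8.48, 9.33 and 8.42 in VBA- replicates 1 to 4, against 9.52, 9.42, 9.20 and 9.18 in the VBA+ replicates. VBA- replicate 3 lay inside the VBA+ range and the other VBA- pools below it. It differed by -0.52 (SE 0.19, adjusted p = 0.276, limma), and by -0.70 without VBA- replicate 3 (adjusted p = 0.157, limma). NR3C2 (ENSDARG00000102082), the mineralocorticoid receptor gene, had 5.21, 5.33, 5.53 and 6.05 in VBA- pools, against 5.46, 5.59, 5.46 and 5.09 in VBA+ pools. Its groups overlapped, with a difference of 0.13 (SE 0.22, adjusted p = 0.83, limma).

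In 1 VBA- pool a well known GR target was at VBA+ levels. FKBP5 (ENSDARG00000028396), a co-chaperone of Hsp90 that the GR induces and that in turn restrains the GR, had 8.71, 6.0, 5.98 and 5.25 in VBA- pools, against 8.99, 8.42, 8.71 and 8.94 in VBA+ pools. Replicates 2 to 4 of VBA- lay far below every VBA+ pool, while VBA- replicate 1 lay among them. With that pool the groups differed by -2.28 (SE 0.59, adjusted p = 0.156, limma), and the adjusted p with the block was 0.0522. Without VBA- replicate 1 the difference was -3.02 and was called (adjusted p = 0.0013, limma). That pool was singled out by this gene's own value, so this fit is not a test. Leaving out any other pool gave adjusted p-values of 0.243 to 0.306 (limma). What sets VBA- replicate 1 apart was not tested. Counts below of genes whose groups did not overlap, where 5 or more, were also taken without 1 pool. They are given where that moved them by over 1.5 times. The number of calls in the first fit is also given without each pool. Calls with the block were not counted with a pool left out.

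Of 43 GR targets tested, a list of genes known from fish or mammals to respond to glucocorticoids, none was called in either fit, though DDIT4, PDK2 (ENSDARG00000059054) and PSME4 were when the block was replaced by a single term that set replicates 1 and 2 apart from replicates 3 and 4. The paper, which used a test on counts (DESeq2), did report klf9 and per1a as lower in vehicle-treated VBA- larvae. Of the 43, 29 lay below 0 and the median log2 fold change was -0.15, against -0.02 over all genes. In 5 of them (11.6%) every VBA- pool lay below every VBA+ pool, and in 1 every VBA- pool lay above. Over all genes tested the corresponding shares were 3.6% and 4.08%. The list, like the other lists, was written with earlier results of these data known, so its excess over all genes is not a test. The 5 were PER1 (ENSDARG00000056885), a repressor in the circadian clock, the 2 genes annotated as PDK2 (ENSDARG00000059054 and ENSDARG00000020876), a kinase that shuts pyruvate dehydrogenase, IRS2 (ENSDARG00000037099), an adaptor of the insulin receptor, and PSME4 (ENSDARG00000087911), a proteasome activator. The 1 above was CRY1 (ENSDARG00000045768), a clock repressor, at only 0.09. Without VBA- replicate 1 the number lower without overlap was 13 of 43, where 7.05% of all genes did so, and it was 8 without VBA+ replicate 3 or 4.

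An unadjusted p of at most 0.05 (limma) was reached by 15 of the 43 (34.9%), against 14.0% of all genes. Of these 14 were lower (32.6%), against 6.54% of all genes. Both shares describe a list chosen with earlier results of these data known. KLF9 (ENSDARG00000068194), a transcription factor that the GR induces, had 7.92, 7.56, 7.18 and 7.60 in VBA- pools, against 8.28, 8.16, 7.85 and 8.35 in VBA+ pools. Its lowest VBA+ pool lay just under its highest VBA- pool, which was again replicate 1, and the groups differed by -0.60 (SE 0.17, adjusted p = 0.176, limma). PER1 had 7.93, 7.93, 8.28 and 8.01 in VBA- pools, against 8.59, 8.61, 8.52 and 8.38 in VBA+ pools, a log2 fold change of -0.49. The other lower values were -0.78 and -0.42 for the 2 PDK2 copies, -0.73 for PFKFB4, which sets the level of the activator of glycolysis, and -0.61 for PSME4. SOCS3 (ENSDARG00000025428), an inhibitor of cytokine signalling, was at -0.59, DDIT4, an inhibitor of mTOR signalling, at -0.56, and HSD11B2, which inactivates cortisol, at -0.51. The muscle ubiquitin ligases trim63a and trim63b were at -0.53 and -0.37, IRS2 at -0.39 and GLUL (ENSDARG00000099776), glutamine synthetase, at -0.14. The transcription factor gene zbtb16b was the one at a higher level, with 7.74, 8.35, 7.55 and 8.43 in VBA- pools, against 7.39, 7.58, 7.07 and 7.27 in VBA+ pools. The groups differed by 0.69 (SE 0.20, adjusted p = 0.199, limma).

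**Figure D1:**
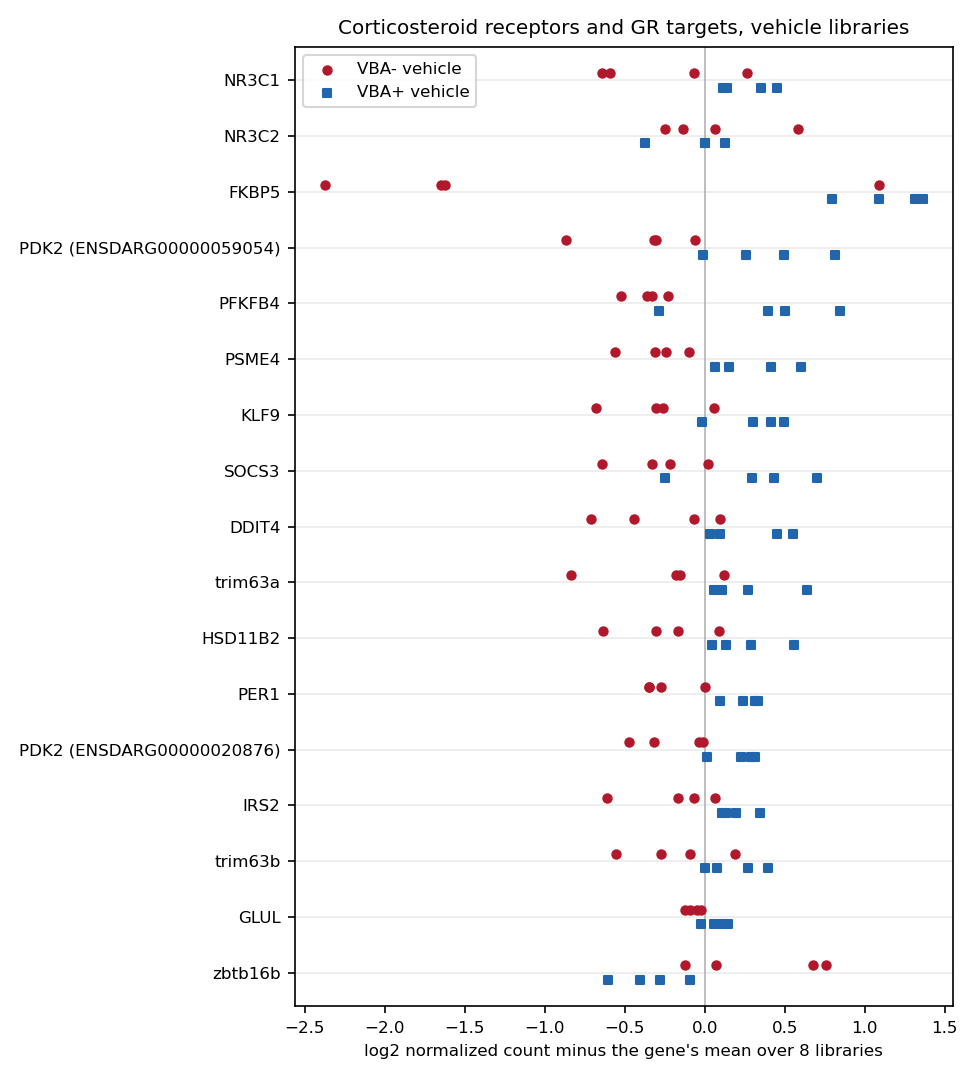
Log2 normalized counts of the 2 corticosteroid receptor genes and of the 15 GR targets with an unadjusted p of at most 0.05, each as the deviation from the gene's mean over the 8 vehicle libraries (red circles, 4 VBA- pools; blue squares, 4 VBA+ pools). FKBP5 shows 3 VBA- pools far to the left and 1 among the VBA+ pools, and zbtb16b is the only one of the 15 targets with its VBA- mean to the right.

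Across all genes, 51 of 21686 were called (0.235%), 37 higher (0.171%) and 14 lower (0.0646%) in VBA- larvae. With the replicate block 195 were called (0.899%), 155 higher (0.715%) and 40 lower (0.184%), among them 50 of the 51. The one lost was MAN1C1, a Golgi mannosidase, with an adjusted p of 0.0536 with the block. Adjusted p-values of the 51 ran from 0.000834 to 0.0499 (limma). All 51 had groups that did not overlap, as did 1664 genes in all, 884 of them with VBA- higher and 780 with VBA- lower. Without VBA- replicate 1 these were 1571 and 1528, and the number lower was 1316 without VBA+ replicate 3, 1245 without VBA- replicate 4 and 1215 without VBA+ replicate 4. Leaving out any 1 pool thus raised the shares of all genes, from 4.08% to between 5.10% and 7.24% higher, and from 3.60% to between 4.82% and 7.05% lower. List counts given below without a pool are to be read beside these shares. An unadjusted p under 0.05 was reached by 3032 genes, 1614 higher and 1418 lower. The number of calls in the first fit depended on single pools. It was 63, 3, 26 and 13 without VBA- replicates 1, 2, 3 and 4. Without VBA+ replicates 1, 2, 3 and 4 it was 14, 1, 2 and 1. All 51 kept their sign in each of these fits and within replicates 1 and 2 and within replicates 3 and 4 alone, and the largest shift of any of their log2 fold changes on leaving out a pool was 0.48.

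**Figure D2:**
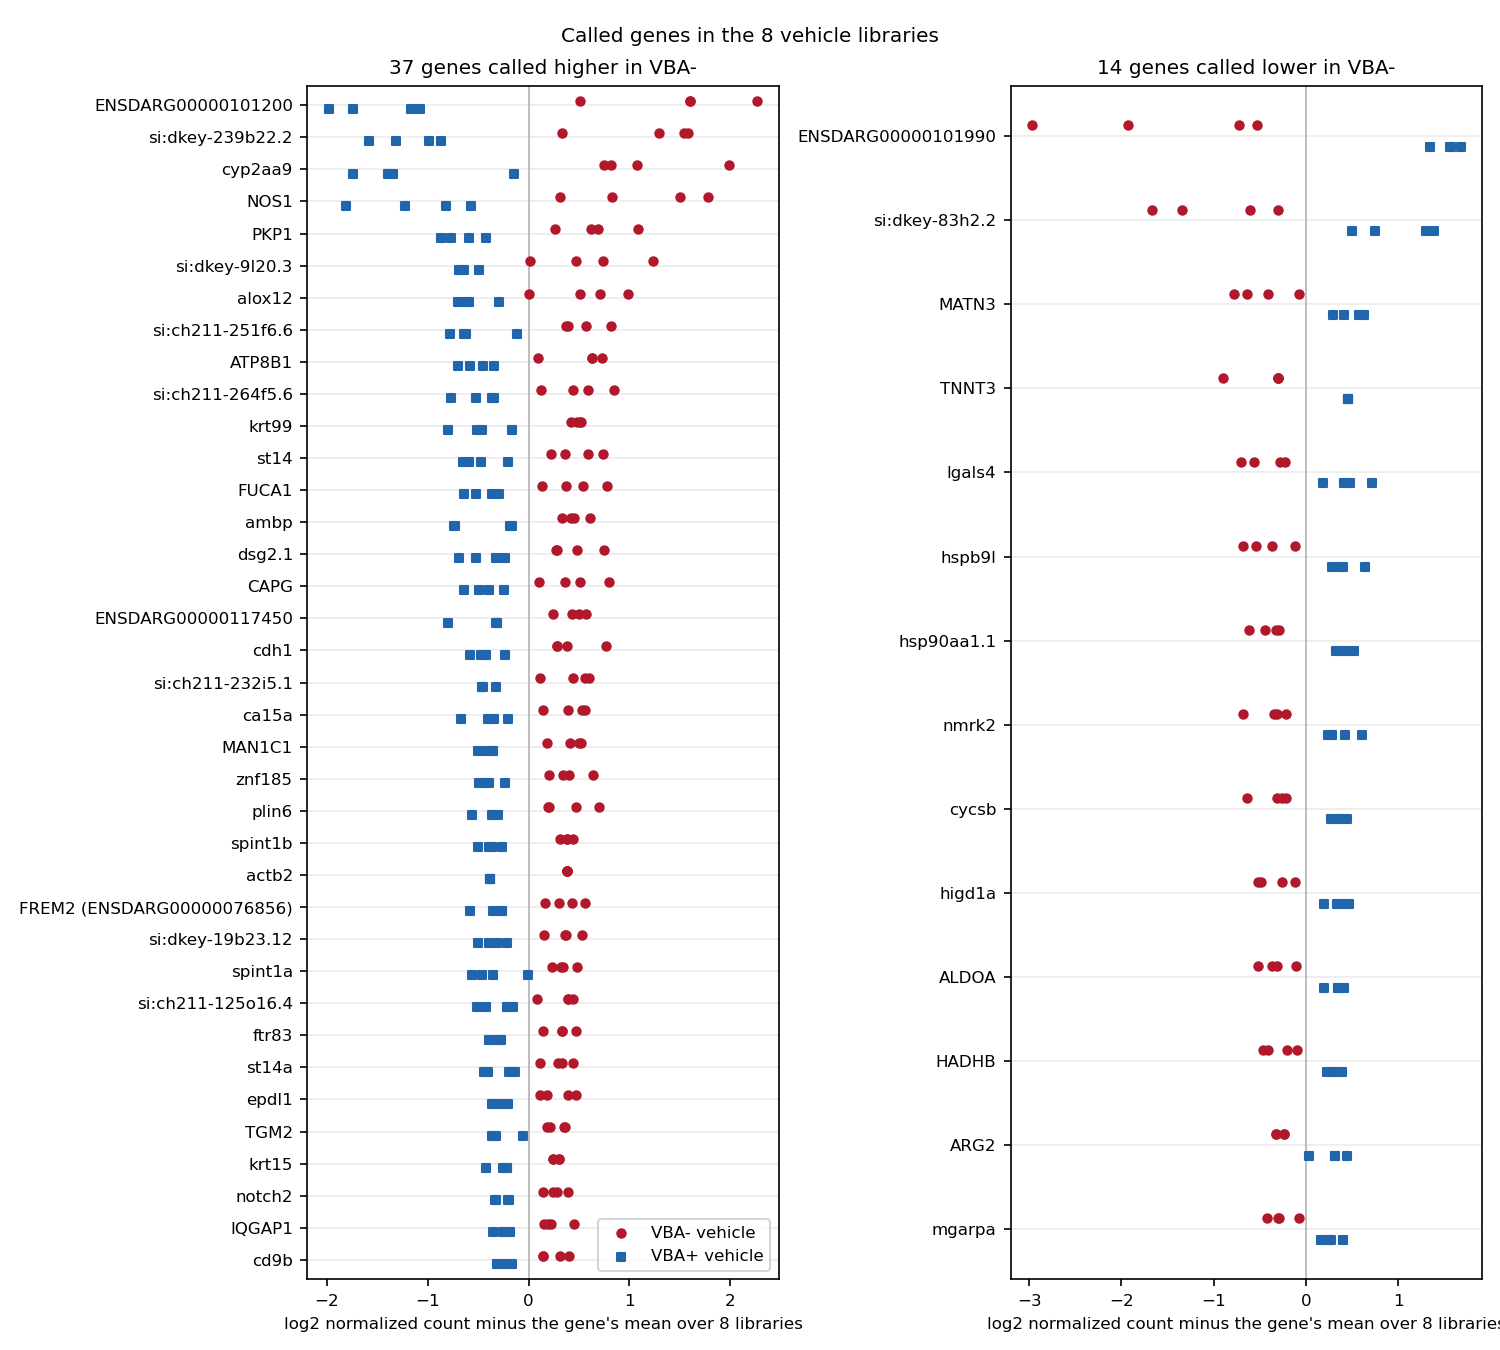
The 37 genes called higher (left) and the 14 called lower (right) in VBA- larvae. Each point is 1 library, plotted as its log2 normalized count minus the gene's mean over the 8 vehicle libraries (red circles, VBA-; blue squares, VBA+), with genes in order of the size of their log2 fold change. In all 51 the VBA- and VBA+ points do not overlap, and the points of actb2 fall on 1 value in each group.

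ENSDARG00000101200, a gene with only a clone name, rose most and had 9.51, 10.18, 8.42 and 9.51 in VBA- pools, against 6.74, 6.17, 5.93 and 6.83 in VBA+ pools. The lowest VBA- pool was above the highest VBA+ pool by more than 1 log2 unit, and the groups differed by 2.99 (SE 0.33, adjusted p = 0.0171, limma). The uncharacterised si:dkey-239b22.2 had 7.64, 8.85, 8.61 and 8.89 in VBA- pools, against 6.44, 6.32, 5.73 and 6.0 in VBA+ pools, a difference of 2.37 (SE 0.27, adjusted p = 0.0171, limma). Next came cyp2aa9, a cytochrome P450 of a family found in fish, which had 7.29, 6.96, 7.02 and 8.20 in VBA- pools, against 4.81, 4.86, 6.07 and 4.47 in VBA+ pools, and a difference of 2.31 (SE 0.36, adjusted p = 0.0461, limma). VBA+ replicate 3 stood above the other VBA+ pools but under all VBA- pools. NOS1, the neuronal nitric oxide synthase, had 6.65, 7.32, 6.13 and 7.60 in VBA- pools, against 4.01, 5.25, 4.59 and 5.00 in VBA+ pools, a difference of 2.21 (SE 0.35, adjusted p = 0.0461, limma). ENSDARG00000101990, a gene with no symbol, fell most and had 4.01, 6.25, 6.44 and 5.05 in VBA- pools, against 8.65, 8.55, 8.32 and 8.53 in VBA+ pools. Its VBA+ pools were tightly grouped and its VBA- pools spread over more than 2 log2 units, for a difference of -3.08 (SE 0.45, adjusted p = 0.0378, limma). The uncharacterised si:dkey-83h2.2 had 5.96, 4.91, 5.65 and 4.59 in VBA- pools, against 7.64, 6.76, 7.0 and 7.56 in VBA+ pools, a log2 fold change of -1.96.

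Of the 42 lists, those of skin and of epithelial junctions had the largest shares of genes whose VBA- pools all lay above the VBA+ pools. Larval zebrafish skin has an outer layer, the periderm, over a basal layer that rests on a basement membrane, and its cells are joined by desmosomes and by tight and adherens junctions. Of 43 genes of skin keratins and the cornified envelope, 4 were called, all higher (9 with the block), 36 lay above 0 and the median log2 fold change was 0.49. Of 42 genes of desmosomes and of tight and adherens junctions, 3 were called, all higher (5 with the block), 35 lay above 0 and the median was 0.28. Every VBA- pool lay above every VBA+ pool for 14 of the 43 (32.6%) and 14 of the 42 (33.3%), against 4.08% of all genes, and the reverse order was seen in no member. Leaving out VBA- replicate 1 gave 17 and 17, where 7.24% of all genes did so, and leaving out VBA+ replicate 1 gave 18 and 22, where 5.96% of all genes did so.

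Among the junction genes PKP1, plakophilin 1 of the desmosomal plaque, had 9.17, 9.63, 8.81 and 9.23 in VBA- pools, against 7.95, 8.12, 7.78 and 7.68 in VBA+ pools. All VBA- pools were well above all VBA+ pools, and the groups differed by 1.32 (SE 0.17, adjusted p = 0.0231, limma). The desmosomal cadherin gene dsg2.1 had 9.22, 9.69, 9.22 and 9.43 in VBA- pools, against 8.62, 8.71, 8.26 and 8.42 in VBA+ pools, a difference of 0.89 (SE 0.13, adjusted p = 0.0408, limma). E-cadherin, cdh1, the cadherin of epithelial adherens junctions, had 11.53, 11.53, 11.63 and 12.01 in VBA- pools, against 11.01, 10.77, 10.83 and 10.66 in VBA+ pools, a difference of 0.86 (SE 0.12, adjusted p = 0.0309, limma). With the block the desmoplakin gene DSP (ENSDARG00000022309), at 0.64, and the tight junction gene cldn7b, at 0.60, were called as well. For PKP1, dsg2.1 and cdh1 the range within each group was smaller than the difference between the groups.

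Among the keratins krt99 had 7.48, 7.49, 7.45 and 7.39 in VBA- pools, against 6.81, 6.46, 6.51 and 6.17 in VBA+ pools, a difference of 0.97 (SE 0.14, adjusted p = 0.0389, limma). The abundant krt15 had 13.09, 13.15, 13.09 and 13.15 in VBA- pools, against 12.60, 12.64, 12.64 and 12.43 in VBA+ pools, a difference of 0.55 (SE 0.07, adjusted p = 0.022, limma). The VBA- pools were nearly equal for both keratins. For krt15 they took only 13.09 and 13.15, steps of the shared values that ALDOA also took in VBA+ pools. Both copies of spint1, whose product inhibits the membrane protease matriptase in the skin, were called higher, spint1b by 0.76 (SE 0.09, adjusted p = 0.022, limma) and spint1a by 0.69 (SE 0.12, adjusted p = 0.0493, limma). For spint1b the values were 8.51, 8.56, 8.44 and 8.51 in VBA- pools, against 7.86, 7.76, 7.62 and 7.73 in VBA+ pools. The protease was called higher too. The gene st14a, which encodes matriptase, rose by 0.59 (SE 0.10, adjusted p = 0.0499, limma), and so did a second gene named st14 (ENSDARG00000100088), by 0.95 (SE 0.13, adjusted p = 0.0309, limma). For st14 the values were 10.51, 11.03, 10.65 and 10.88 in VBA- pools, against 10.09, 9.83, 9.70 and 9.65 in VBA+ pools. With the block the annexin genes anxa1b, at 1.05, and anxa1c, at 0.96, the envoplakin gene evpla, at 0.56, the keratin krt1-19d, at 0.69, and the actin-binding profilin gene pfn1, at 1.32, were called higher. The transcription factor genes of the outer epidermis, GRHL1 at 0.51 and grhl3 at 0.47, and the cross-linking enzyme TGM1 (ENSDARG00000017799) at 0.61 were not called but had VBA- pools all above VBA+ pools.

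Of 55 genes of the basement membrane and hemidesmosomes, 1 was called, higher (4 with the block), 44 lay above 0 and the median was 0.27. In 14 (25.5%) every VBA- pool lay above every VBA+ pool and in none below, and in 21 (38.2%) above and 2 below without VBA- replicate 1. The called one was FREM2 (ENSDARG00000076856), part of the Fraser complex that ties the epidermis to the dermis, with 8.30, 8.70, 8.44 and 8.56 in VBA- pools, against 7.88, 7.87, 7.78 and 7.56 in VBA+ pools. The groups differed by 0.73 (SE 0.12, adjusted p = 0.0461, limma). The second FREM2 copy (ENSDARG00000102626) at 0.85, FREM1 at 0.98 and the integrin gene ITGB1 (ENSDARG00000053232) at 0.70 were called with the block, and fras1, another gene of the complex, was at 0.56 without overlap. The median moved with the pools, being 0.13 within replicates 1 and 2 and 0.31 within replicates 3 and 4.

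Of 45 fibrillar collagen and fin matrix genes none was called and 3 were with the block, 37 lay above 0 and the median was 0.27. Of these and3, an actinodin of the fin fold, had 12.10, 12.48, 12.07 and 12.07 in VBA- pools, against 11.45, 11.40, 10.75 and 10.26 in VBA+ pools, a difference of 1.22 (SE 0.23, adjusted p = 0.0766, limma, and 0.0205 with the block). COL1A1, the main chain of type I collagen, had 14.15, 14.32, 15.21 and 15.54 in VBA- pools, against 13.67, 13.56, 13.93 and 13.86 in VBA+ pools. VBA- replicates 3 and 4 stood about 1 log2 unit above VBA- replicates 1 and 2, but 15.21 and 15.54 are fixed values of the top ranks. In 7 of the 45 genes (15.6%) every VBA- pool was higher, as in 14 without VBA- replicate 1 and in 12 without VBA+ replicate 3. The median was 0.17 without VBA- replicate 4, 0.11 within replicates 1 and 2, 0.42 within replicates 3 and 4 and -0.11 in the cortisol-treated pools.

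Pigment cell lists also held more higher than lower genes. Zebrafish carry black melanophores, yellow xanthophores, which hold pteridines and carotenoid droplets, and silver iridophores, which stack purine crystals. Of 40 xanthophore and iridophore genes 1 was called higher (4 with the block), 33 lay above 0, 9 had no overlap with VBA- higher (22.5%) and none with VBA- lower, and the median was 0.22. The called gene was plin6, a perilipin of the carotenoid droplets, with 8.30, 8.80, 8.29 and 8.57 in VBA- pools, against 7.76, 7.74, 7.53 and 7.80 in VBA+ pools, a difference of 0.79 (SE 0.13, adjusted p = 0.0493, limma). PAICS, an enzyme of purine synthesis, had 12.94, 12.73, 11.35 and 13.86 in VBA- pools, against 10.46, 10.36, 11.01 and 10.42 in VBA+ pools. Its VBA- pools spread over more than 2 log2 units yet all lay above the VBA+ pools, and the log2 fold change of 2.16 (SE 0.41) was called only with the block (adjusted p = 0.075, limma, and 0.0429 with the block). With the block the xanthophore oxidase gene aox5 at 0.65 and XDH, xanthine dehydrogenase, at 0.82 were called too, and the purine synthesis genes ATIC at 0.66 and GART at 0.28 had no overlap. Of 27 melanophore genes none was called and 1 was with the block, 22 lay above 0, 5 had no overlap with VBA- higher (18.5%; 8 without VBA- replicate 1, VBA- replicate 3 or VBA+ replicate 2), and the median was 0.25. The 1 with the block was OCA2, a melanosome transporter gene, at 0.63, and TYR, tyrosinase, was at 0.48 (adjusted p = 0.0958, limma). The larvae had been sorted by the behaviour of these cells, so the state of their pigment differed between the groups by selection.

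Liver genes also had higher values, but pools differed more within groups than for the skin genes. Of 60 genes of secreted liver proteins 58 lay above 0, with a median log2 fold change of 0.61, and of 33 complement and acute phase genes 28 lay above 0, with a median of 0.59. One of the 60 and none of the 33 was called, but 14 of the 60 and 14 of the 33 were with the block, all higher. Every VBA- pool lay above every VBA+ pool for 11 (18.3%) and 5 (15.2%). The first became 23 without VBA+ replicate 4 and 17 without VBA- replicate 2, and the second 10 without VBA- replicate 1 and 8 without VBA- replicate 2. The called one was ambp, the precursor of alpha-1-microglobulin and bikunin, with 11.30, 11.28, 11.19 and 11.47 in VBA- pools, against 10.12, 10.12, 10.70 and 10.67 in VBA+ pools, a difference of 0.91 (SE 0.14, adjusted p = 0.0461, limma). VBA+ replicates 1 and 2 lay under VBA+ replicates 3 and 4. The same split ran through the lists. Taken as the median deviation from each gene's mean over the 8 libraries, the liver list stood at 0.14, 0.06, 0.34 and 0.75 in VBA- pools, against -0.83, -0.61, 0.05 and 0.14 in VBA+ pools. VBA- replicates 1 and 2 were level with VBA+ replicates 3 and 4, and each VBA- pool stood above the VBA+ pool of its own number. The complement list stood at 0.06, 0.08, 0.40 and 0.79 in VBA- pools, against -0.99, -0.62, 0.14 and 0.08 in VBA+ pools. The part of this split in the block calls was not tested.

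Single liver genes followed the same order. The complement gene c4b had 6.54, 7.34, 7.20 and 8.58 in VBA- pools, against 4.18, 5.46, 6.49 and 6.53 in VBA+ pools, a log2 fold change of 1.75 with an adjusted p of 0.208 (limma) and of 0.0287 with the block. VBA- replicate 1 and VBA+ replicate 4 were nearly equal, so the groups met without overlapping. Angiotensinogen, agt, the precursor of angiotensin, had 9.56, 9.64, 9.41 and 10.58 in VBA- pools, against 8.17, 7.81, 8.97 and 8.77 in VBA+ pools, a log2 fold change of 1.37. Among the other block calls of these lists were the fibrinogen chains FGG at 0.63 and FGB at 0.75, plasminogen (PLG) at 1.06, transferrin (tfa) at 0.75, ITIH2 at 1.12, and the complement genes c3b.2 at 1.15, c5 at 1.05, c8a at 1.00 and c9 at 1.12. Of these FGG and c9 alone had groups that did not overlap. The members of the C3 family share sequence, and reads may be split among them.

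Of 47 cytochrome P450 genes of families 1 to 4, 1 was called higher (2 with the block), 39 lay above 0, 10 had no overlap with VBA- higher (21.3%) and none with VBA- lower, and the median was 0.37, at 0.18 without VBA- replicate 4 and 0.24 without VBA+ replicate 1. Of those 10, 7 belonged to the cyp2aa subfamily, closely related copies among which reads may be split. Beside cyp2aa9, cyp2aa8 was at 2.08, cyp2aa4 at 1.76, cyp2aa11 at 1.68, cyp2aa3 at 1.57, cyp2aa1 at 0.85 and cyp2aa2 at 0.81. For cyp2aa11 the values were 6.62, 6.46, 6.0 and 5.73 in VBA- pools, against 5.33, 3.92, 4.59 and 4.26 in VBA+ pools, a log2 fold change with an adjusted p of 0.0722 (limma) at a mean too low to be called. The whole-list median behaved like the liver lists, at -0.02, -0.03, 0.33 and 0.52 in VBA- pools, against -0.43, -0.41, 0.11 and 0.08 in VBA+ pools, whereas cyp2aa9 and cyp2aa11 were higher in every VBA- pool.

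**Figure D3:**
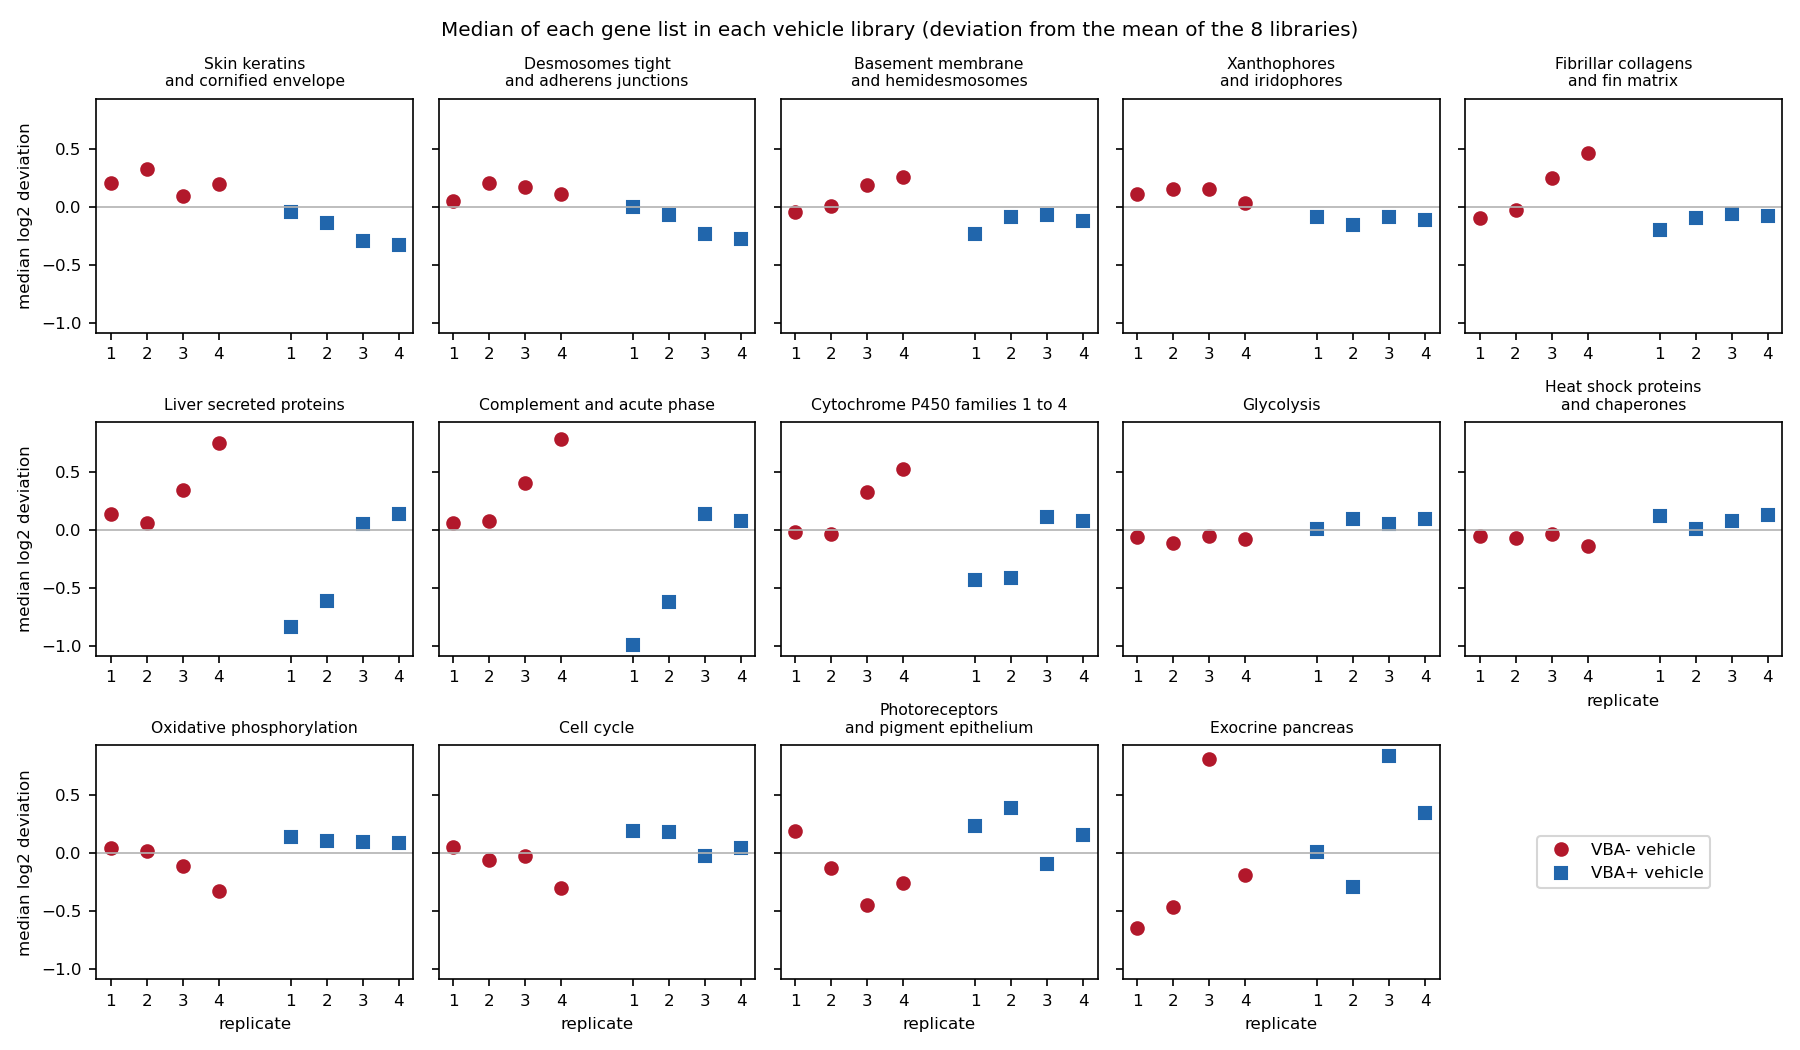
Median of 14 gene lists in each of the 8 vehicle libraries, as the deviation in log2 from each gene's mean over the 8 libraries (red circles, VBA- replicates 1 to 4; blue squares, VBA+ replicates 1 to 4). The medians of skin keratins, junctions, basement membrane, xanthophores and iridophores, glycolysis, heat shock and oxidative phosphorylation genes do not overlap between the groups. Those of basement membrane, heat shock, oxidative phosphorylation and junction genes are parted by a narrow gap. The medians of the liver and complement lists spread over about 1 log2 unit among the VBA+ libraries.

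The other called rises were spread over further functions. NOS1, described above, was 1 of 26 genes of nitric oxide and cGMP signalling, of which 13 lay above 0 and 13 below. Of 44 ionocyte genes 1 was called, ca15a, a carbonic anhydrase of the acid-secreting skin ionocytes, with 8.18, 8.57, 8.60 and 8.44 in VBA- pools, against 7.69, 7.37, 7.64 and 7.83 in VBA+ pools, a difference of 0.81 (SE 0.13, adjusted p = 0.0461, limma). In 5 ionocyte genes (11.4%) every VBA- pool was higher and in 2 (4.55%) lower, and the first became 11 without VBA- replicate 1 and 8 without VBA+ replicate 1. The ionocyte median was 0.24, at 0.38 without VBA- replicate 1, 0.03 within replicates 1 and 2 and 0.46 within replicates 3 and 4. The lipoxygenase gene alox12 rose by 1.11 and ATP8B1, a phospholipid flippase, by 1.04. ATP8B1 had 8.69, 9.22, 9.32 and 9.23 in VBA- pools, against 8.14, 8.25, 8.01 and 7.90 in VBA+ pools, with replicate 1 the lowest of the VBA- pools. FUCA1 (ENSDARG00000035890), a lysosomal fucosidase, rose by 0.91 and the actin-capping gene CAPG (ENSDARG00000099672) by 0.88. The uncharacterised genes si:dkey-9l20.3, si:ch211-251f6.6 and si:ch211-264f5.6 rose by 1.23, 1.08 and 1.00. Smaller called rises, taken up here because they complete the list, were those of TGM2 (ENSDARG00000074094), a transglutaminase, at 0.55, the receptor gene notch2 at 0.53, the scaffold gene IQGAP1 at 0.51, the tetraspanin gene cd9b at 0.50, znf185 at 0.79, ftr83 at 0.64, epdl1 at 0.58, MAN1C1 at 0.81 and 4 genes without an established name at 0.65 to 0.87. The beta-actin gene actb2, a common reference gene, had 16.89 in all 4 VBA- pools and 16.13 in all 4 VBA+ pools, 2 of the fixed top values of the shared distribution. Its fold change of 0.76 is therefore a move between 2 fixed values, which more than 1 gene can hold in the same pool. Its SE of 0.05 and adjusted p of 0.00083 (limma) rest on an SD of 0 within groups.

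Genes called lower included chaperones, enzymes of muscle energy metabolism and mitochondrial proteins. The Hsp90 gene hsp90aa1.1, which in zebrafish is expressed in muscle and needed for myosin folding, had 10.05, 10.16, 10.199 and 9.88 in VBA- pools, against 10.82, 11.01, 10.88 and 10.96 in VBA+ pools. The gap between the groups was wider than the range of either, and the groups differed by -0.84 (SE 0.09, adjusted p = 0.0128, limma). The small heat shock gene hspb9l, which was in no list, had 9.05, 8.62, 8.80 and 8.48 in VBA- pools, against 9.80, 9.55, 9.57 and 9.45 in VBA+ pools, a difference of -0.85 (SE 0.13, adjusted p = 0.0408, limma). Of 74 heat shock proteins and chaperones 1 was called lower (3 with the block), 57 lay below 0, 13 had no overlap with VBA- lower (17.6%) and 2 with VBA- higher, and the median was -0.18. With the block hspb9 at -1.36 and the collagen chaperone gene SERPINH1 (ENSDARG00000019949) at -0.65 were called. Not called but without overlap were hsp70.3 at -0.78, hspb6 at -0.72, the co-chaperone genes BAG3 at -0.53 and CDC37 at -0.50, the myosin chaperone gene UNC45B at -0.52 and, higher, their activator hsf1 at 0.28. The count of 13 became 20 (27.0%) without VBA- replicate 1, where 7.05% of all genes did so. It became 21 (28.4%) without VBA+ replicate 2, where 4.82% of all genes did so.

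Enzymes of muscle glycolysis and NAD salvage, and other metabolic enzymes, were among the falls. ALDOA (ENSDARG00000011665), the aldolase of muscle glycolysis, had 12.43, 12.37, 12.64 and 12.23 in VBA- pools, against 13.15, 13.09, 13.09 and 12.94 in VBA+ pools, a difference of -0.65 (SE 0.09, adjusted p = 0.0309, limma). Of 45 glycolysis genes 1 was called lower (2 with the block), 31 lay below 0, 6 had no overlap, all lower (13.3%; 13 without VBA- replicate 1), and the median was -0.12. PFKM (ENSDARG00000014179), muscle phosphofructokinase, had 10.61, 10.02, 10.59 and 9.61 in VBA- pools, against 11.13, 11.11, 11.09 and 11.05 in VBA+ pools, a log2 fold change of -0.89 called with the block alone. LDHA, lactate dehydrogenase, was at -0.49. HADHB, a subunit of the mitochondrial enzyme of fatty acid oxidation, fell by 0.59 (SE 0.09, adjusted p = 0.044, limma) and nmrk2, a kinase of NAD salvage in muscle, by 0.77 (SE 0.12, adjusted p = 0.0461, limma). In both the lowest VBA+ pool exceeded the highest VBA- pool. ARG2, the mitochondrial arginase, had 10.56, 10.56, 10.47 and 10.47 in VBA- pools, against 11.11, 11.23, 11.11 and 10.83 in VBA+ pools, a difference of -0.56 (SE 0.09, adjusted p = 0.0461, limma).

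Mitochondrial genes included 2 more falls outside any list, higd1a, which acts on respiratory complexes under low oxygen, by 0.69 (SE 0.11, adjusted p = 0.0463, limma) and mgarpa, whose product sits in mitochondria, by 0.54 (SE 0.09, adjusted p = 0.0461, limma). Cytochrome c, cycsb, the electron carrier before complex IV, had 10.98, 10.93, 10.88 and 10.55 in VBA- pools, against 11.63, 11.47, 11.53 and 11.56 in VBA+ pools, a difference of -0.71 (SE 0.10, adjusted p = 0.0309, limma). It was the 1 call among 102 oxidative phosphorylation genes, in both fits. Of the 102, 93 lay below 0, 22 had no overlap with VBA- lower (21.6%) and none with VBA- higher, and the median was -0.21. These included COX4I1 at -0.34 and cox7b at -0.43 of complex IV, NDUFB6 at -0.41 of complex I, SDHB at -0.36 of complex II and ATP5PB at -0.38 of the ATP synthase. The list stood at 0.04, 0.02, -0.11 and -0.32 in VBA- pools, against 0.14, 0.11, 0.10 and 0.09 in VBA+ pools. All VBA- pools were lower, but VBA- replicate 4 was much the lowest. Without VBA- replicate 1 the number without overlap was 35 of 102, and without VBA- replicate 4 the median was -0.13.

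The sarcomere lists had medians near that of all genes or above it. TNNT3 (ENSDARG00000068457), fast muscle troponin T, had 16.13 in VBA- replicates 1 to 3 and 15.54 in replicate 4, against 16.89 in all 4 VBA+ pools. As with actb2 these are fixed top values, and the log2 fold change of -0.91 (SE 0.12, adjusted p = 0.0309, limma) counts steps between them. In every pool but VBA- replicate 4, actb2 held 16.89 where TNNT3 held 16.13, or the reverse. The 2 calls may thus not be separate. TNNT3 was the 1 call of 45 fast muscle sarcomere genes, whose median was -0.06. With the block MYBPC2 at 0.65 and myhb at 0.76 were called higher. In 4 of the 45 (8.89%) every VBA- pool lay below every VBA+ pool and in 2 (4.44%) above. Over all genes these shares were 3.60% and 4.08%. Among genes of slow and cardiac muscle, 38 in number, none was called and the median was 0.15 (0.08 without VBA- replicate 4). Of the 38, 4 had no overlap with VBA- higher (10.5%) and none with VBA- lower. With the block tpm1, a tropomyosin, at 0.60 was called higher. MATN3 (ENSDARG00000069265), matrilin 3 of cartilage, had 6.53, 6.76, 6.39 and 7.10 in VBA- pools, against 7.59, 7.46, 7.74 and 7.80 in VBA+ pools, a difference of -0.95 (SE 0.16, adjusted p = 0.0499, limma). It was the 1 call of 40 cartilage and bone genes, whose median was -0.09, between -0.19 and 0.04 when 1 pool was left out. Of the 40, 3 had no overlap, all lower (7.5%). The galectin gene lgals4, in the intestine list, had 7.36, 6.88, 7.30 and 7.02 in VBA- pools, against 8.31, 7.77, 8.07 and 8.00 in VBA+ pools, a difference of -0.89 (SE 0.15, adjusted p = 0.0493, limma), while the median of the 49 intestine genes was 0.18, between 0.03 and 0.28 when 1 pool was left out.

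**Figure D4:**
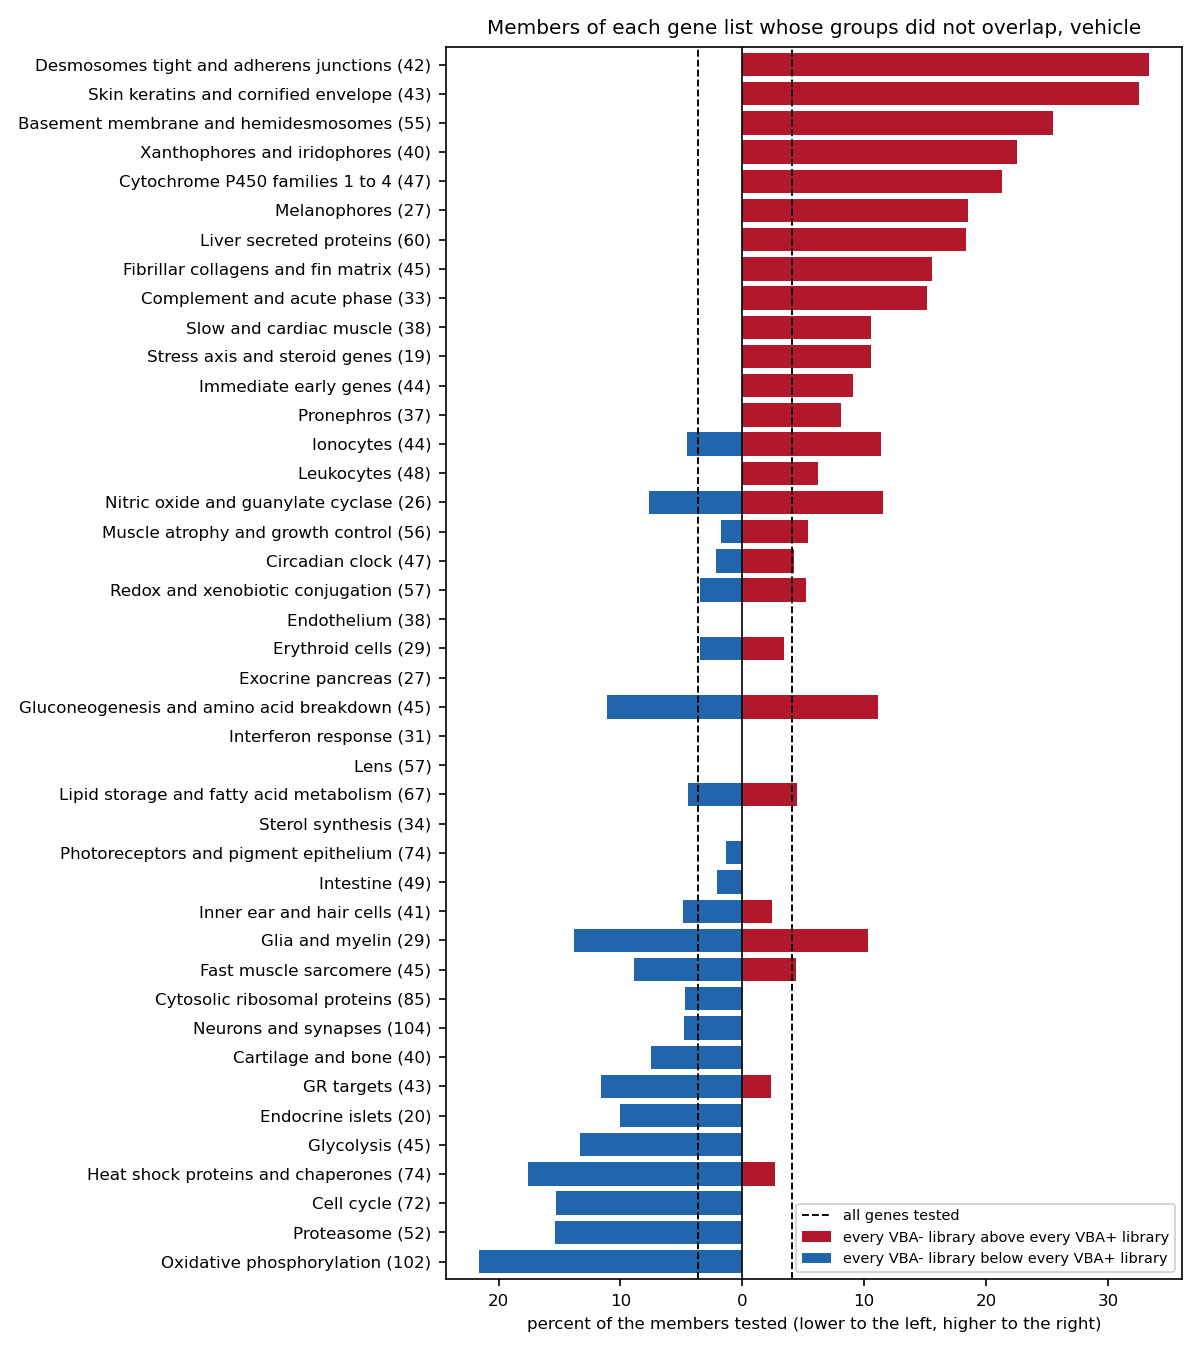
Percent of the tested members of 42 gene lists (number tested in brackets) in which every VBA- library lay above every VBA+ library (red, to the right) or below (blue, to the left). Dashed lines mark the shares over all genes tested, 4.08% above and 3.6% below. Junction, skin keratin and basement membrane lists reach furthest to the right, and oxidative phosphorylation and heat shock lists furthest to the left.

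Lists of dividing cells and of the nervous system held no call in the first fit. Of 72 cell cycle genes 62 lay below 0, 11 had no overlap with VBA- lower (15.3%) and none with VBA- higher, and the median was -0.20 (-0.11 without VBA- replicate 4). The proliferation marker mki67 had 9.07, 8.90, 9.19 and 9.07 in VBA- pools, against 9.40, 9.57, 9.32 and 9.38 in VBA+ pools, a difference of -0.36 (SE 0.09, adjusted p = 0.155, limma). The count became 20 without VBA- replicate 1 and 18 without VBA+ replicate 3. Of 52 proteasome genes 45 lay below 0 and 8 had no overlap, all lower (15.4%; 14 without VBA+ replicate 3), with a median of -0.14 (-0.06 without VBA- replicate 4). Of 74 photoreceptor and pigment epithelium genes 66 lay below 0 and the median was -0.36, but 1 member alone had groups that did not overlap (1.35%), a smaller share than over all genes. That count was 21 (28.4%) without VBA- replicate 1 and 14 (18.9%) without VBA+ replicate 3, the pools at the inner edge of each group. Of all genes 7.05% and 6.07% did so. With any other pool left out the count was between 1 and 3. With the block the cone arrestin gene ARR3 (ENSDARG00000098475) and the guanylate cyclase activator gene guca1c were called lower, both at -0.75. The list stood at 0.19, -0.13, -0.45 and -0.25 in VBA- pools, against 0.24, 0.39, -0.10 and 0.16 in VBA+ pools, so that the groups crossed. Of 104 neuronal genes 86 lay below 0 and 5 had no overlap, all lower, a share of 4.81% that is near the 3.60% of all genes. That count was 15 (14.4%) without VBA- replicate 1, 16 (15.4%) without VBA- replicate 4 and 12 (11.5%) without VBA+ replicate 3. Of all genes 7.05%, 5.74% and 6.07% did so. It was 9 (8.65%) without VBA+ replicate 1 and 8 (7.69%) without VBA+ replicate 4, against 5.13% and 5.60% of all genes. The neuronal median was -0.17 (-0.11 without VBA- replicate 2 and -0.27 without VBA- replicate 4). The synaptic gene SNAP25 (ENSDARG00000058117) was at -0.52 (adjusted p = 0.155, limma). In the 29 glial genes the median was -0.18 (-0.11 without VBA+ replicate 3). Of the 29, 4 had no overlap with VBA- lower and 3 with VBA- higher, both larger shares than the 3.60% and 4.08% of all genes. Without VBA- replicate 1 the number lower was 7, again a larger share than the 7.05% of all genes. GFAP, the filament of radial glia, was at -0.50 (adjusted p = 0.101, limma). Of 27 exocrine pancreas genes 24 lay below 0 and the median was -0.44, yet none had groups that did not overlap (6 without VBA- replicate 3). That list stood at -0.64, -0.46, 0.81 and -0.18 in VBA- pools, against 0.01, -0.29, 0.84 and 0.35 in VBA+ pools, and both replicates 3 were far above the rest. Leaving out 1 pool moved the pancreas median between -0.76 and -0.15.

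The remaining lists had medians from -0.12 to 0.16, against -0.02 over all genes, and some held most of their members on one side of 0. Of 45 genes of gluconeogenesis and amino acid breakdown, functions that the GR induces in liver, 35 lay above 0 (77.8%), against 46.8% of all genes. The median was 0.16 (0.10 without VBA+ replicate 2). In this list 5 genes had no overlap with VBA- higher and 5 with VBA- lower (11.1% each), with 10 higher without VBA+ replicate 4 and 8 without VBA+ replicate 1. Those higher included fbp1a, fructose-bisphosphatase, at 0.48, and those lower included GPT (ENSDARG00000055642), an aminotransferase, at -0.77. The stress axis and steroid list had 19 tested genes and a median of 0.03, and hsd11b1la, with 9.0, 9.23, 9.18 and 9.16 in VBA- pools, against 8.86, 8.69, 8.91 and 8.70 in VBA+ pools, was 1 of its 2 genes without overlap, both higher (10.5%). Without VBA+ replicate 3 these were 4 higher and 1 lower. Neither the leukocyte nor the interferon list held a call in either fit, with medians of 0.10 over 48 leukocyte genes (between 0.03 and 0.19 when 1 pool was left out) and 0.01 over 31 interferon response genes. The immediate early list had a median of -0.05, with 4 of 44 genes higher without overlap (9.09%), of which klf2b, a factor of the KLF family, had 9.87, 10.14, 9.92 and 9.83 in VBA- pools, against 9.34, 9.38, 9.52 and 9.04 in VBA+ pools, and was called with the block at 0.62. Of 57 lens genes 48 lay above 0, with a median of 0.14. The lens median was -0.02 without VBA- replicate 1, 0.40 within replicates 1 and 2 and -0.09 within replicates 3 and 4. The clock list was at -0.01, sterol synthesis at 0.03, lipid storage and fatty acid metabolism at 0.02, with plin6 and HADHB as its 2 calls, muscle atrophy and growth control at 0.01, with IGFBP5 (ENSDARG00000039264), an IGF binding protein, at 1.15 called with the block, redox and xenobiotic conjugation at 0.09, pronephros at 0.13 (between 0.04 and 0.21 when 1 pool was left out), endothelium at 0.08, erythroid cells at 0.02, islets at -0.12 (between -0.22 and -0.03 when 1 pool was left out), inner ear at -0.01 and cytosolic ribosomal proteins at -0.08.

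The 8 libraries from larvae given 1 µM cortisol are other pools of the same classes, so the same contrast in them shares no library with the one above. In them limma called no gene, although 1701 had an unadjusted p under 0.05. Of the 51 genes called in vehicle 48 had the same sign in cortisol (94.1%), against 56.6% of all genes tested. The exceptions were MAN1C1 at -0.35, lgals4 at 0.51 and actb2 at 0.00. Genes called with the block kept their sign less often, 136 of 195 (69.7%), with 99 of the 155 higher and 37 of the 40 lower ones. Over all genes tested, 5808 of the 10140 higher and 6453 of the 11546 lower ones did so. The median of the 155 called higher with the block was 0.88 in vehicle and 0.31 in cortisol. Of the 37 called higher in the first fit 18 had every VBA- cortisol pool above every VBA+ cortisol pool, where 2.41% of all genes did. Of the 14 called lower in that fit 4 had the opposite order, where 1.76% did. Genes in that first group included PKP1 at 1.68, krt99 at 1.46 and cyp2aa9 at 2.93, and hsp90aa1.1, at -0.75, cycsb, ALDOA and mgarpa made up the second. The median of the 37 was 0.85 in vehicle and 0.73 in cortisol, and that of the 14 was -0.81 in vehicle and -0.33 in cortisol. A fit over all 16 libraries of the difference between the vehicle and cortisol effects passed for actb2 alone (difference 0.76, adjusted p = 0.0241, limma). The values of actb2 are fixed top values with an SD of 0 within every group.

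Skin keratin and junction genes stayed higher in the cortisol pools, while the medians of the liver and complement lists changed sign. The skin keratin list had a median log2 fold change of 0.49 in vehicle and 0.53 in cortisol, and all 9 members called with the block in vehicle were above 0 in cortisol, as were all 5 of the junction list. The basement membrane list had a median of 0.27 in vehicle but 0.07 in cortisol, with all 4 of its block calls above 0 in cortisol. Every VBA- cortisol pool lay above every VBA+ cortisol pool in 9 keratin, 4 junction and 5 basement membrane genes (20.9%, 9.52% and 9.09%), where 2.41% of all genes did. The liver list had a median of 0.61 in vehicle and -0.15 in cortisol, and 3 of the 14 called with the block were above 0 in cortisol. The complement list had a median of 0.59 in vehicle and -0.18 in cortisol, and 2 of its 14 were above 0 in cortisol. For none of those 28 liver and complement genes did the difference between vehicle and cortisol pass (adjusted p of 0.726 to 0.79, limma), so a change of effect was not shown for any single gene. Oxidative phosphorylation genes had a median of -0.21 in vehicle and 0.16 in cortisol, and proteasome genes one of -0.14 in vehicle and 0.12 in cortisol. The cytochrome P450 list was at 0.37 in vehicle and -0.0055 in cortisol. The VBA- cortisol replicate 1 had 8.95 for FKBP5 and 9.54 for KLF9, inside the ranges of the VBA+ cortisol pools (8.61 to 9.47 and 8.76 to 9.74), while the other VBA- cortisol pools had 3.34 to 6.94 for FKBP5 and 7.44 to 8.49 for KLF9. GR targets had a median of -0.15 in vehicle and -0.38 in cortisol, and heat shock genes one of -0.18 in vehicle and -0.17 in cortisol.

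**Figure D5:**
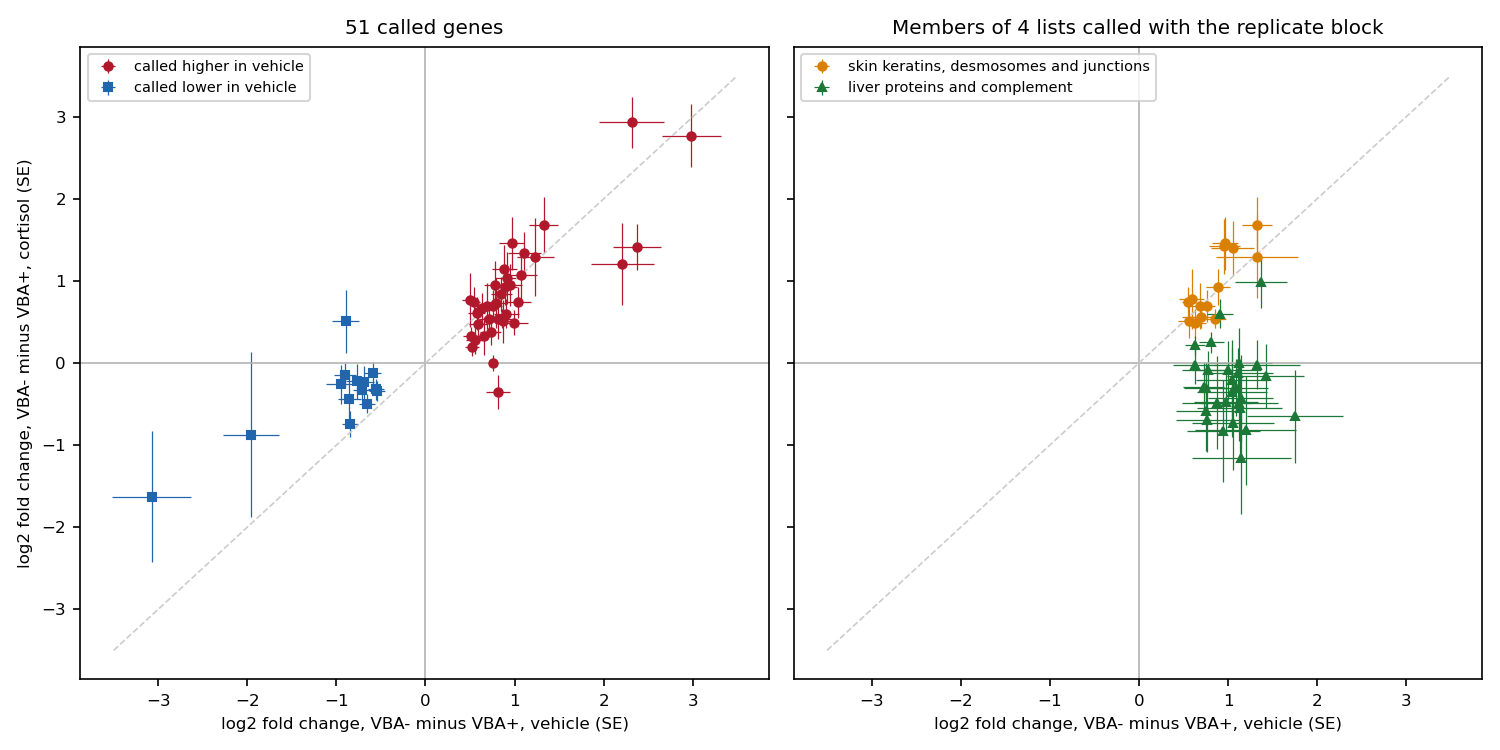
Log2 fold change of VBA- minus VBA+ in vehicle (horizontal) and in cortisol (vertical), with bars of 1 SE, for the 51 called genes (left; red circles higher, blue squares lower in vehicle) and for members of 4 lists called with the replicate block (right; orange circles, skin keratins and junctions; green triangles, liver proteins and complement). The dashed line marks equal effects. In the left panel 48 of 51 genes lie in the quadrants of equal sign, and on the right all skin and junction genes lie above 0 in cortisol while most liver and complement genes lie below.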

How the data were processed

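RNA was sequenced from pools of 8 whole larvae, with 4 pools in each of 4 conditions. Per the study's methods and the submitters' processing notes, reads were trimmed with Trimmomatic (0.36 in the notes, another version in the methods), aligned to GRCz11 with STAR 2.6.1b and quantified with RSEM 1.3.0, and R 3.6.1 and DESeq2 1.24.0 were also used. The authors then normalized the counts for GC content within libraries and by full quantiles between libraries, and deposited them as log2 of the normalized count plus 0.1, 1 column per library. Full-quantile scaling hides any difference in total RNA, and read depth and counting error cannot be recovered from it.

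Of 22994 gene IDs, 21794 had a symbol, many of them in the human form. VBA- was compared with VBA+ over the 8 vehicle libraries with limma 3.58.1 (lmFit, eBayes with trend) in R 4.3.3, for the 21686 genes with a mean of at least 5 normalized counts over 16 libraries, with Benjamini-Hochberg adjustment over all of them. All limits for a call are given with the results. The 42 gene lists, the members and the rule for named genes were chosen with earlier results of these data known. The rule took both receptor genes, GR targets with an unadjusted p of at most 0.05, the 15 largest called rises and falls, and in each list the called genes, filled up to 3 by lowest p. Other genes are named because they were called with the block or had groups without overlap, and were chosen after their values were seen. Each condition had a single dish from which its pools were drawn in turn, so p-values measure only the spread between pools of that dish.

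Replicate numbers are shared between groups without a stated meaning. After subtracting each group's mean, VBA- and VBA+ libraries of the same number correlated at 0.253, 0.212, 0.309 and 0.235 over the 13772 genes that could be called, and at 0.0967, 0.0918, 0.104 and 0.122 over all genes tested. Only 1 of 4 VBA- and 1 of 4 VBA+ libraries correlated best with its own number, so results are given with and without the block. Over the genes that could be called, VBA- replicate 2 reached 0.486 with VBA+ replicate 1. VBA- replicate 4 reached 0.447 with VBA+ replicate 3. The test was checked on simulated data. Alternatives were the block, a term for replicates 1 and 2 against 3 and 4, other filters, pseudocount, variance models and library weights, all 16 libraries in 1 fit, and leaving out each library. Counts of list members without overlap when a library is left out were added after seeing the data. Python 3.11.15, pandas 2.3.3 and matplotlib 3.10.9 were used for the tables and plots.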

Additional observations from a re-analysis of the deposited data

Results flagged for a closer look

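In 328 groups of 4 libraries, 1 for each named gene in VBA- and in VBA+, a library was looked for that lay apart from the other 3 by more than Dixon's limit. Of the 328, 20 were found, a share near the 5% that chance gives. That rate does not hold where the other 3 libraries share 1 fixed value, as for TNNT3, apoa2, RPS2 and RPS24. Among called genes, VBA- replicate 1 was low for ATP8B1 (8.69, others 9.22 to 9.32) and for si:ch211-125o16.4 (11.87, others 12.18 to 12.23). VBA+ replicate 1 was high for TGM2 (9.73, others 9.43 to 9.47) and for si:ch211-232i5.1 (8.09, others 7.95), and VBA+ replicate 4 was low for ENSDARG00000117450 (6.21, others 6.69 to 6.70). TNNT3 had 15.54 in VBA- replicate 4 and 16.13 in the others, a single step of the shared values.

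In matrix and pigment genes, VBA- replicate 2 was high for and3 (12.48, others 12.07 to 12.10), VBA+ replicate 2 for FMOD (6.80, others 6.39 to 6.46) and VBA+ replicate 3 for PAICS (11.01, others 10.36 to 10.46). VBA- replicate 4 stood apart for CUBN (8.26, others 7.25 to 7.41), apoa2 (14.84, others 15.21) and cav3 (9.89, others 10.12 to 10.17). VBA- replicate 3 stood apart for HMGCS1 (8.85, others 8.07 to 8.11) and VBA- replicate 2 for isg15 (3.19, others 4.65 to 4.91). VBA+ replicate 1 stood apart for CD2AP (9.13, others 8.97 to 8.99) and VBA+ replicate 4 for lck (4.91, others 3.60 to 3.82). Ribosomal protein genes moved by single steps of the shared values. RPS2 had 16.13 in VBA- replicate 3 (others 15.21) and 16.89 in VBA+ replicate 1 (others 16.13), RPS24 had 15.54 in VBA- replicate 3 (others 16.13), and RPL26 had 13.56 in VBA+ replicate 1 (others 13.67).

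The difference between VBA- and VBA+ itself differed between vehicle and cortisol for actb2 alone among the genes tested, at 0.76 in vehicle and 0.00 in cortisol, a difference of 0.76 (adjusted p = 0.0241, limma). All its vehicle values were the 2 top steps of the shared distribution, and it had 16.89 in every cortisol library of both groups. With an SD of 0 within every group, these values cannot show whether there was more than a move between fixed values.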

How the results depend on the processing

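Against 51 genes called (37 higher, 14 lower in VBA-), the fit with the replicate block called 195 (155 and 40), a term for replicates 1 and 2 against 3 and 4 called 363 (285 and 78), all 16 libraries in 1 fit called 16 (12 and 4), no filter on low values called 8 (7 and 1), and eBayes without the trend called 1 (1 and 0), actb2. Robust eBayes called 76, of which 58 were higher and 18 lower. A filter at a mean of 75 before testing gave 60, a pseudocount of 1 gave 55, library weights gave 58, and dropping the limit on the mean or on the fold change gave 57 and 55. Leaving out 1 library gave between 1 and 63 calls, between 1 and 44 higher and between 0 and 19 lower, with the fewest without VBA+ replicate 2 or 4 and the most without VBA- replicate 1. Of the 51, 33 were still called without VBA- replicate 1 and 1, actb2, without VBA+ replicate 2, while all 51 kept their sign under every alternative listed here. Of the 164 named genes 2 changed sign. NR3C2 was at -0.0461 without VBA- replicate 4, 0.23 without VBA- replicate 1 and -0.26 within replicates 1 and 2, and crygm7, a lens crystallin gene at 0.89 over all 8 libraries, was at -0.02 within replicates 3 and 4. Of 42 list medians, 9 changed sign within replicates 1 and 2 or within replicates 3 and 4, the lens list among them. The median of the liver list ran from 0.43 to 0.76 and that of skin keratins from 0.35 to 0.51 when 1 library was left out. Depth is unknown, so no counting error is given for low genes. The steps between the highest shared values limit what can be read for actb2, TNNT3, krt1-19e, COL1A1 and ribosomal protein genes. Smaller steps do so for krt15 and ALDOA, and are seen in other called genes. The value 11.53 recurred in cdh1, cycsb and mgarpa, and ARG2 repeated 10.56 and 11.11. What such steps do to their SEs was not tested.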

Other observations

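Of the 195 genes called with the replicate block, 113 were in no gene list, and those named here were chosen after their values were seen. The abundant keratin krt1-19e was at 1.00, with 16.13, 16.89, 15.54 and 15.54 in VBA- pools, against 15.21, 15.21, 14.84 and 14.84 in VBA+ pools. As with actb2 these are fixed top values, so the 1.00 counts steps between them. ABCA12, the lipid transporter of the cornified layer in mammals, had 10.96, 11.50, 11.11 and 11.39 in VBA- pools, against 10.66, 10.49, 10.40 and 10.03 in VBA+ pools, a difference of 0.85. The mechanosensitive channel gene PIEZO1 had 7.83, 8.28, 8.04 and 8.40 in VBA- pools, against 7.31, 7.64, 7.20 and 7.15 in VBA+ pools, a difference of 0.81. The transporter gene abch1 was at 1.51 and the mucin gene muc13a at 1.11. In all of these every VBA- pool was above every VBA+ pool.

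Enzymes in no list were among them. PYGL, liver glycogen phosphorylase, had 10.101, 10.18, 10.18 and 11.37 in VBA- pools, against 8.80, 8.79, 9.80 and 9.67 in VBA+ pools, a difference of 1.19. HAL, histidine ammonia lyase, was at 1.01, UROC1, the next enzyme of histidine breakdown, at 0.72, and CYP7A1, the first enzyme of bile acid synthesis, at 0.96 with overlapping groups.

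Among falls with the block, HSP90AA1 (ENSDARG00000024746) had 9.85, 9.94, 9.68 and 10.12 in VBA- pools, against 10.61, 10.62, 10.32 and 10.50 in VBA+ pools, a difference of -0.62. Its sequence is close to that of hsp90aa1.1, and reads may be split between them. The co-chaperone gene dnaja was at -0.93 and SRL, sarcalumenin of the muscle calcium store, at -0.71. The mitochondrially encoded mt-atp8 was at -0.60 and GNG13, a G protein subunit of sensory and ON bipolar cells, at -0.68. The uncharacterised si:dkey-7c18.24 had 9.13, 8.66, 10.01 and 6.96 in VBA- pools, against 11.75, 10.57, 10.80 and 11.19 in VBA+ pools, a difference of -2.39. In all of these every VBA- pool was below every VBA+ pool.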
